A study of Mus musculus with 24 samples.

Results

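Interferon response and antigen presentation genes were followed in a mouse myoblast differentiation series. The set was given as 37 gene symbols, and its members were the rows of the gene table that carried one of these names. Of the 28109 genes of the table, 36 were members. Psmb9, the remaining symbol, was not analysed here.

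The series measured polyadenylated RNA by RNA-seq in 24 libraries from 2 kinds of myoblast. C2C12 cells are an established line of mouse myoblasts, labelled here with the strain C3H. PMs are primary myoblasts, isolated from young wild type mice of strain C57/B6. Both were transfected with a control siRNA (siControl, siLuc in the labels) or with a pool of siRNAs that target Tead1 and Tead4 at once (siTead1/4), and RNA was taken before differentiation on the day after transfection (day 0) and at days 3 and 6 of differentiation in low horse serum. Each of the 12 groups thus carried a transfected siRNA, also the controls, and held 2 libraries, which the labels call biological replicates without giving cultures or animals. No untransfected cells were compared. Cell type and strain could not be told apart.

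Interferons bind cell surface receptors whose Janus kinases switch on transcription factors in the cytoplasm. Type I interferons act through complexes that hold Stat2 and Irf9 on genes that carry an interferon-stimulated response element (ISRE), and interferon gamma, of type II, acts through a different element, the gamma-activated site. The products of these genes sense viral nucleic acids, block viral replication, attach the ubiquitin-like modifier Isg15 to proteins and raise the display of peptides on class I molecules of the major histocompatibility complex. In muscle, class I molecules are low on resting fibres and are known to appear on fibres and myoblasts that are inflamed or exposed to interferon.

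The 36 members fell into 7 roles: 4 transcription factors (Irf1, Irf7, Irf9 and Stat2), 4 sensors of RNA and DNA, 12 antiviral effectors, 3 genes of the Isg15 system and ubiquitin ligases, 2 genes of the ADP-ribosyltransferase family, 5 interferon-inducible GTPases and 6 genes of class I antigen presentation. In the mm9 coordinates of the table, 5 of the 6 class I genes lay on chromosome 17, from the start of H2-K1 (ENSMUSG00000061232) at base 34132962 to the end of H2-D1 at base 35404444. Ifit1, Ifit2 and Ifit3 lay together on chromosome 19, and Gbp2 and Gbp3 on chromosome 3.

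RefSeq promoter windows (GRCm38.p6, 250 bases before to 50 bases after a gene's start) were found for 27 members, and 14 of them (51.9%) held the ISRE core, GAAA followed by any 2 bases and GAAA again, on at least one strand, against 3.99% of 27025 genes with a window. Stretches around the core are shown for 10 members that carry the results described further on, 5′ to 3′ on the strand of the gene, with the core and any overlapping copies in capitals. Where the core lay on the opposite strand, the capitals show its reverse complement.
Stat2: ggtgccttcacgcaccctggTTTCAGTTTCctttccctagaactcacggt
Ifit1: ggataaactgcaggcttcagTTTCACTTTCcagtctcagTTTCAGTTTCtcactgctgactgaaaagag
Ifit3: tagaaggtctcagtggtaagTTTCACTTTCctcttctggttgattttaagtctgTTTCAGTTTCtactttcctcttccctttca
Isg15: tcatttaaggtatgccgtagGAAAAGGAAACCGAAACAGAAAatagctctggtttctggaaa
Rsad2: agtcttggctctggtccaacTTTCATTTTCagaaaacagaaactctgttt
Bst2: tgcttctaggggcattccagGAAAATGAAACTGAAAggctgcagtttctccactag
Gbp2: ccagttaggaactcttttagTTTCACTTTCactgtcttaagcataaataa
Igtp: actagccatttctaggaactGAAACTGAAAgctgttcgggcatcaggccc
Irgm1: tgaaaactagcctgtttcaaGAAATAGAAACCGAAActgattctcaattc
B2m: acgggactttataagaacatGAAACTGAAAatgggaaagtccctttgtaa
These stretches lay at chr10:128270256-128270305 for Stat2, chr19:34640765-34640833 for Ifit1 and chr19:34583353-34583436 for Ifit3, all on the forward strand. The stretches of Isg15 (chr4:156200855-156200916), Rsad2 (chr12:26456543-26456592), Bst2 (chr8:71537567-71537622) and Irgm1 (chr11:48871421-48871470) were on the reverse strand. Those of Gbp2 (chr3:142620584-142620633), Igtp (chr11:58199502-58199551) and B2m (chr2:122147528-122147577) were on the forward strand. Isg15 held 3 overlapping copies, Bst2 and Irgm1 held 2 overlapping copies each, and Ifit1 and Ifit3 held 2 separate copies each. The gamma-activated site TTCNNNGAA was in the windows of 7 of 27 members against 9.55% of all genes. CATTCC, the MCAT element that TEAD proteins bind, was in 2 of 27 (Bst2 and Gbp2) against 16.6% of all genes. These are matches of letters on both strands, not binding sites. Dhx58, Zbp1, Mx1, Mx2, Usp18, Parp9, Parp14, Iigp1 and Tap2 had no window.

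Library totals ran from 25453830 to 52784510 counts. Each level below is a read count per 1000000 of the effective library size (CPM), with replicate 1 named first. The siRNA targets were read first. In PMs, Tead4 stood at 64.2 and 59.5 CPM (day 0), 194 and 197 CPM (day 3) and 163 and 173 CPM (day 6) under siControl, and at 13.2 and 11.1 CPM (day 0), 30.6 and 35.2 CPM (day 3) and 40.8 and 59.2 CPM (day 6) under siTead1/4. Tead4 passed the test on every day in PMs and at days 0 and 3 in C2C12 cells, and Tead1 at days 0 and 3 in PMs only. In C2C12 cells Tead1 went from 70.5 and 113 CPM to 28.9 and 4.5 CPM at day 0 and from 76 and 136 CPM to 70.6 and 77 CPM at day 6, so that the reduction at day 6 was small beside the spread of the siControl pair. The myogenic list (Myod1, Myog, Des and others) summed to between 643 and 18846 CPM in C2C12 libraries and to between 8810 and 32795 CPM in PM libraries.

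One library stood apart in these genes. In PM siControl day 3 replicate 2, 35 of 36 members were higher than in replicate 1 of the same group, 25 of them by more than 1 on the log2(CPM + 1) scale, with a median difference of 1.53. Over 14497 genes the median difference between the same libraries was 0.002 and 1.01% exceeded 1. PM siTead1/4 day 3 replicate 2 also stood above its replicate 1 in 33 of 36 members, by more than 1 in 14, with a median of 0.82. C2C12 siTead1/4 day 3 replicate 2 did so in 24 of 36, by more than 1 in 8, with a median of 0.27. In the other 9 groups at most 3 members differed by more than 1 in either direction. Results that rest on PM siControl day 3 replicate 2 are therefore given with and without it where its omission changed a call or a bound, a choice made after the values had been seen. Leaving it out leaves 1 library in that group, which is then assumed to vary like the other groups.

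Markers of other cell types were read in the same library. Its endothelial markers summed to 3.18 CPM against 13.4 CPM in replicate 1, its Schwann cell markers to 2.35 against 8.28 CPM and its leukocyte and macrophage markers to 4.37 against 5.27 CPM. Its fibroblast markers summed to 1595 against 1473 CPM. Over all libraries the leukocyte and macrophage list (11 of 14 markers in the table) summed to between 4.21 and 9.36 CPM in C2C12 cells and between 3.08 and 6.78 CPM in PMs, and 8 of the 11 were at or below 1 CPM in every library, with Ptprc at no more than 0.0593 CPM and Emr1 at no more than 0.0289 CPM. The other 3 were higher. Cd14 stood at 2.31 to 7.72 CPM in C2C12 cells and 0.227 to 0.817 CPM in PMs. Cd68 stood at 0.526 to 2.05 and 0.505 to 1.8 CPM, and Itgam at 0 to 1.48 and 0.494 to 5.09 CPM. In PMs, endothelial markers summed to between 2.82 and 16.1 CPM, Schwann cell markers to between 2.08 and 14.2 CPM and fibroblast markers to between 552 and 3872 CPM. In the C2C12 line endothelial markers summed to between 0.183 and 1.4 CPM and Schwann cell markers to between 0.675 and 2.11 CPM. Its fibroblast markers summed to between 839 and 3658 CPM, with a median of 2269 against 1534 CPM in PMs. Of 12 interferon genes listed as ligands, 4 were in the table, and together they gave 0 to 4 counts in any library. In PM siControl day 3 replicate 2 they gave 0 counts, which allows up to 3 counts in that library. The part of these markers in the results was not tested. In such bulk libraries, fewer cells of a type and less RNA per cell cannot be told apart.

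**Figure D1:**
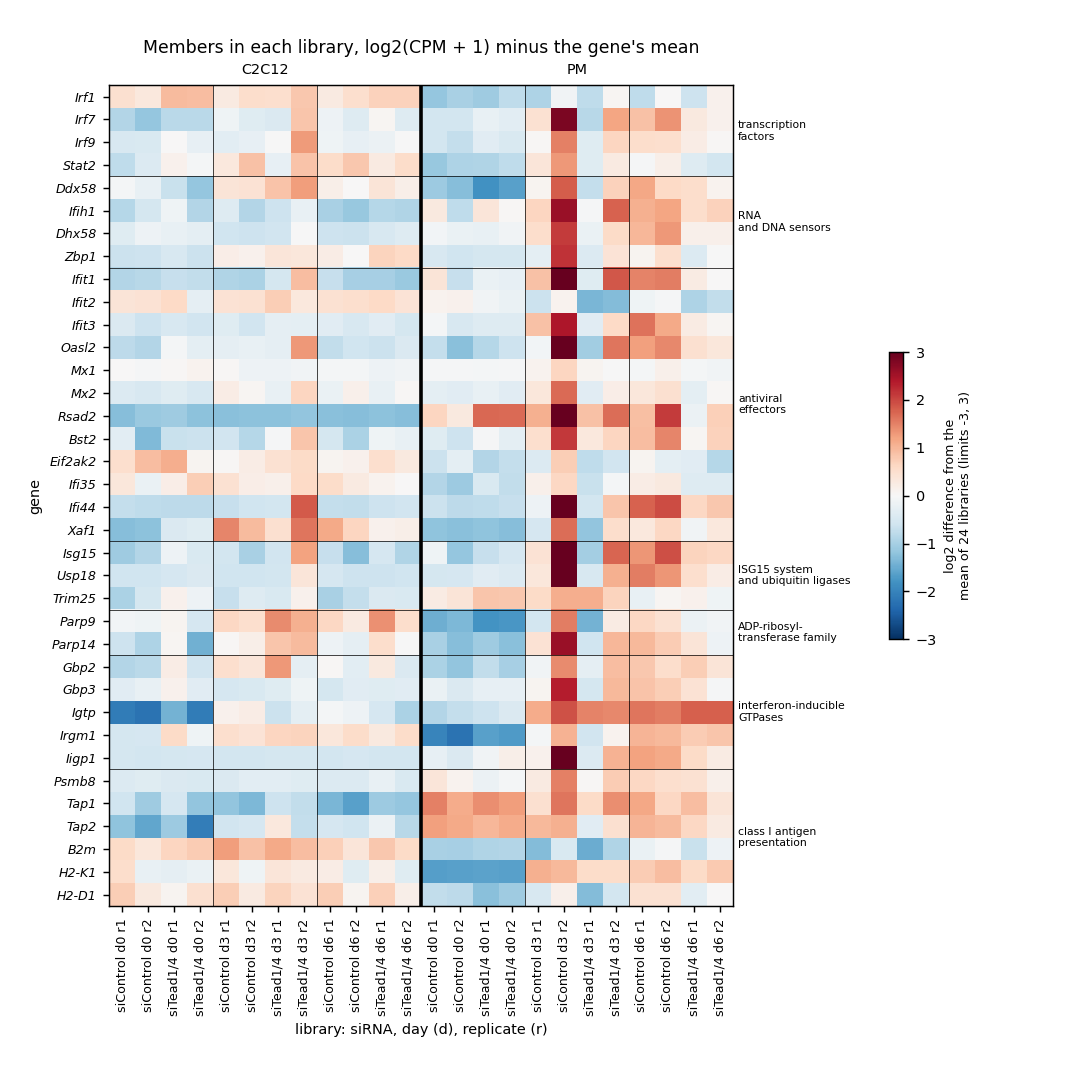
Level of the 36 members in each of the 24 libraries, as log2(CPM + 1) minus the mean of the gene over all libraries (colour, limits at -3 and 3). Rows are genes in the order of their roles, and columns are libraries, C2C12 on the left and PM on the right. PM siControl day 3 replicate 2 is the darkest column, and the PM day 0 columns are pale or blue for most members.

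Per kilobase of transcript, B2m, the light chain of class I molecules, was the highest member in every group, from 89.4 CPM per kb (mean of 2 libraries) in PM siTead1/4 cells at day 3 to 428 CPM per kb in C2C12 siControl cells at day 3. H2-K1, a class I heavy chain, or, in PMs at day 0, Trim25 and, in siControl PMs at day 3, Bst2 came next. At day 0 in siControl PMs 21 of 36 members were below 1 CPM per kb and 3 were above 10. At day 3 in siControl PMs 2 were below 1 and 7 above 10, and at day 6 7 were below 1 and 6 above 10. In siControl C2C12 cells 22 members were below 1 CPM per kb at day 0, 17 at day 3 and 19 at day 6.

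The first comparison asked how these genes changed as siControl PMs differentiated. Of the 35 members tested (Mx1 was too low), 26 were called higher at day 3 than at day 0 and 0 were called lower, with a median log2 fold change of 2.69. Over all 16144 genes tested, 17.5% were called higher and 14.9% lower. Here and throughout, a gene was called at a Benjamini-Hochberg adjusted p under 0.05 over all tested genes and an absolute log2 fold change over 1 in edgeR's quasi-likelihood test, and log2 fold changes are given ± SE. At day 6, 21 members were called higher and 0 lower, with a median of 2.23, against 20.2% and 15.3% of all genes. Both days share the day 0 libraries, so that their values are not independent. Without siControl replicate 2 at all days, 14 members (40.0%) were called at day 6, against 16.4% of all genes.

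The day 3 count depended on 1 library. Without PM siControl day 3 replicate 2, 12 members were called, all of them among the 26: Bst2, Ddx58, Gbp2, H2-K1, Ifi35, Ifit3, Igtp, Irgm1, Mx2, Parp14, Stat2 and Usp18. The median was then 1.31. Without siControl replicate 2 at all days, 5 were called: H2-K1, Ifi35, Igtp, Irgm1 and Stat2. These 5 are 14.3% of the members, near the 14.6% of all genes called higher in that setting. The 12 are 34.3%, against 16.3% of all genes. Of the 14 members with an ISRE core, 12 were called at day 3 with all libraries and 7 without that library, and 7 were called at day 6. Of the 13 with a window but no core, 7, 2 and 8 were called, so that the 2 kinds of promoter did not keep the same order on both days.

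Among the transcription factors, Irf7, which amplifies the interferon response, stood in siControl PMs at 0.975 and 0.986 CPM (day 0), 2.97 and 19.5 CPM (day 3) and 4.33 and 6.36 CPM (day 6). Each later library was above both day 0 libraries, and Irf7 was called at day 3 (3.46 ± 0.96, adjusted p = 0.0097) and at day 6 (2.38 ± 0.94, adjusted p = 0.048), but not at day 3 without replicate 2 (1.55 ± 0.86, adjusted p = 0.16). Irf9, the DNA-binding partner of Stat2, stood at 6.85 and 6.06 CPM (day 0), 10.7 and 31.7 CPM (day 3) and 15.6 and 15.2 CPM (day 6). It too was called on both days (1.66 ± 0.44, adjusted p = 0.008 at day 3 and 1.19 ± 0.44, adjusted p = 0.038 at day 6), with 0.68 ± 0.34, adjusted p = 0.13 at day 3 once replicate 2 was left out. Stat2, whose promoter stretch is shown above, stood at 8.52 and 10.1 CPM (day 0), 26.1 and 50.9 CPM (day 3) and 19.4 and 22.6 CPM (day 6). Its change at day 3 was called with replicate 2 (2.0 ± 0.30, adjusted p = 0.00021) and without it (1.44 ± 0.24, adjusted p = 0.00092), and also at day 6 (1.11 ± 0.30, adjusted p = 0.0073). Irf1, which acts early after interferon gamma, stood at 8.75 and 10.1 CPM (day 0), 10.5 and 19.5 CPM (day 3) and 12 and 21.1 CPM (day 6), and its change was not called on either day (0.62 ± 0.40, adjusted p = 0.2 at day 3).

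All 4 sensors were called at day 3, against 17.5% of all genes called higher. Ddx58 encodes RIG-I, which detects viral RNA ends, and stood at 3.52 and 2.96 CPM (day 0), 9.06 and 32.8 CPM (day 3) and 20.4 and 13.6 CPM (day 6). It was called at day 3 with all libraries (2.63 ± 0.61, adjusted p = 0.0034), at day 3 without replicate 2 (1.43 ± 0.51, adjusted p = 0.042) and at day 6 (2.32 ± 0.60, adjusted p = 0.0065). Ifih1 encodes the long double-stranded RNA sensor MDA5. Its levels were 3.43 and 1.13 CPM (day 0), 4.57 and 20.8 CPM (day 3) and 6.53 and 7.21 CPM (day 6), and it was called at day 3 alone (2.4 ± 0.78, adjusted p = 0.022), not without replicate 2 (0.93 ± 0.75, adjusted p = 0.33). Dhx58, the related protein LGP2 that tunes both, stood at 0.933 and 0.789 CPM (day 0), 1.96 and 7.71 CPM (day 3) and 3.11 and 4.08 CPM (day 6), and was called at days 3 and 6 (2.43 ± 0.59, adjusted p = 0.0049 and 1.99 ± 0.59, adjusted p = 0.014). Without replicate 2 its day 3 value was 1.13 ± 0.48, adjusted p = 0.076. Zbp1, a sensor of left-handed nucleic acids, had counts of 6 and 1 (day 0), 10 and 241 (day 3) and 20 and 38 (day 6), most of them in the library that stood apart.

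Of the 11 antiviral effectors tested, 9 were called at day 3 and 7 at day 6, against 17.5% and 20.2% of all genes called higher. Ifit1, which binds RNA that lacks a host cap, stood at 1.97 and 0.394 CPM (day 0), 3.2 and 24.7 CPM (day 3) and 5.34 and 5.58 CPM (day 6) and was called at day 3 (3.46 ± 1.09, adjusted p = 0.019) but not without replicate 2 (1.35 ± 1.03, adjusted p = 0.3) or at day 6 (2.1 ± 1.07, adjusted p = 0.11). Ifit3, its binding partner, stood at 0.53 and 0.141 CPM (day 0), 1.94 and 7.56 CPM (day 3) and 3.95 and 2.48 CPM (day 6). It was called in each of these settings (3.7 ± 0.84, adjusted p = 0.0033, 2.41 ± 0.82, adjusted p = 0.034 and 3.12 ± 0.84, adjusted p = 0.0081). Of the 50-base windows of Ifit3, 51.5% also occur in I830012O16Rik, so that reads could be shared between these genes. Ifit2, which restricts viral translation, had its highest mean level in siControl PMs at day 0: 11 and 11.3 CPM (day 0), 6.09 and 11.1 CPM (day 3) and 9.22 and 9.81 CPM (day 6). The day 3 pair overlapped the day 0 pair, and Ifit2 was called on neither day (-0.43 ± 0.23, adjusted p = 0.14 at day 3).

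Rsad2 encodes viperin, which makes a chain-terminating nucleotide, and stood at 2.8 and 1.97 CPM (day 0), 4.07 and 18.8 CPM (day 3) and 3.56 and 9.39 CPM (day 6). It was called at day 3 (2.2 ± 0.71, adjusted p = 0.021) but not without replicate 2 (0.71 ± 0.64, adjusted p = 0.38) or at day 6 (1.37 ± 0.71, adjusted p = 0.12). Bst2 encodes tetherin, which holds budding viruses at the cell surface. Its levels were 8.71 and 7.18 CPM (day 0), 16.8 and 53.6 CPM (day 3) and 22.8 and 33.3 CPM (day 6), called at day 3 with and without replicate 2 (2.09 ± 0.45, adjusted p = 0.0024 and 1.03 ± 0.31, adjusted p = 0.02) and at day 6 (1.75 ± 0.45, adjusted p = 0.0063). Ifi35, an interferon-induced leucine zipper protein, stood at 6.13 and 5.16 CPM (day 0), 13.6 and 19.2 CPM (day 3) and 14.4 and 15.1 CPM (day 6), a smaller change than most but also called in each setting (1.48 ± 0.24, adjusted p = 0.00033, 1.22 ± 0.26, adjusted p = 0.0034 and 1.32 ± 0.24, adjusted p = 0.00067). Another gene on its locus, Gm11626, overlaps 16.8% of its exon bases.

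Ifi44 had the largest fitted change of the set at both days. It had 5 and 0 counts at day 0 and stood at 0.561 and 16.2 CPM at day 3 and 4.88 and 5.71 CPM at day 6, with log2 fold changes of 7.01 ± 1.72, adjusted p = 0.0051 and 6.34 ± 1.73, adjusted p = 0.0085. Without replicate 2 the day 3 value was 3.12 ± 1.46, adjusted p = 0.1, no longer called. Xaf1, a binding partner of the apoptosis inhibitor Xiap, stood at 0.699 and 0.648 CPM (day 0), 1.74 and 11.5 CPM (day 3) and 3.88 and 5.02 CPM (day 6). It was called on both days (3.23 ± 0.91, adjusted p = 0.011 and 2.65 ± 0.91, adjusted p = 0.027), and not at day 3 without replicate 2 (1.31 ± 0.82, adjusted p = 0.21). Oasl2 and Mx2 were called on both days. Oasl2 had 63 and 1157 counts at day 3 and was not called there without replicate 2, whereas Mx2 was. Eif2ak2, the kinase PKR that halts translation, was called on neither, and Mx1, which had no more than 0.733 CPM in any library, was not tested.

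Isg15 is the modifier that its conjugating enzymes attach to new proteins, and Usp18 is the protease that removes it and dampens the interferon receptor. Isg15 stood at 2.08 and 0.507 CPM (day 0), 3.56 and 39.1 CPM (day 3) and 7.41 and 12 CPM (day 6) in siControl PMs. The day 3 change was called (3.95 ± 1.24, adjusted p = 0.018) and rested on replicate 2 (1.38 ± 1.13, adjusted p = 0.34 without it), and day 6 was not called (2.8 ± 1.21, adjusted p = 0.067). Usp18 had counts of 3 and 3 (day 0), 34 and 504 (day 3) and 108 and 88 (day 6), and was called on both days and at day 3 without replicate 2 (adjusted p = 0.049). Trim25, the ubiquitin ligase that activates RIG-I, was far higher, at 73.3 and 81 CPM (day 0), 92.6 and 131 CPM (day 3) and 52.5 and 63.6 CPM (day 6), and its changes of 0.48 and -0.48 were below the fold limit. Parp9 and Parp14, of the ADP-ribosyltransferase family, were both called on both days. Parp9 had 126 and 723 counts at day 3 and was not called there without replicate 2, whereas Parp14 was. For Parp9, 9.40% of the exon bases are overlapped by Dtx3l.

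Of the interferon-inducible GTPases, which attack the membranes around intracellular pathogens, all 5 were called at day 3 and 4 at day 6. Of all genes, 17.5% and 20.2% were called higher. Igtp stood at 2.27 and 2.68 CPM (day 0), 12.1 and 21.8 CPM (day 3) and 17.4 and 16.5 CPM (day 6). All 4 later libraries lay above both day 0 libraries, and the change was called at day 3 with and without replicate 2 (2.73 ± 0.25, adjusted p = 6.5e-06 and 2.25 ± 0.17, adjusted p = 8.6e-06) and at day 6 (2.72 ± 0.25, adjusted p = 5.9e-06). Irgm1, a regulator of the same family, stood at 5.4 and 4.45 CPM (day 0), 23.3 and 51.4 CPM (day 3) and 50.5 and 48.9 CPM (day 6). It was likewise called in each setting (2.86 ± 0.34, adjusted p = 4.2e-05, 2.19 ± 0.24, adjusted p = 7.3e-05 and 3.26 ± 0.35, adjusted p = 1.6e-05). Gbp2, a guanylate-binding protein, stood at 0.445 and 0.225 CPM (day 0), 1.6 and 6.45 CPM (day 3) and 3.88 and 3.0 CPM (day 6). It too was called in each setting (3.49 ± 0.75, adjusted p = 0.0024, 2.16 ± 0.69, adjusted p = 0.025 and 3.25 ± 0.76, adjusted p = 0.0035). Iigp1 stood at 0.233 and 0.0845 CPM (day 0), 0.617 and 11.9 CPM (day 3) and 2.39 and 2.25 CPM (day 6), and was called on both days (5.16 ± 1.44, adjusted p = 0.01 and 3.71 ± 1.45, adjusted p = 0.045) but not at day 3 without replicate 2 (1.83 ± 1.3, adjusted p = 0.27). Gbp3 was called at day 3 only, and not without replicate 2. Igtp shares 9.64% of its 50-base windows with Irgm2.

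Of the class I antigen presentation genes, 1 of 6 was called at day 3 and 2 at day 6, against 17.5% and 20.2% of all genes called higher. For so few genes these counts are near those shares. The one called on both days was H2-K1, which stood at 12.8 and 13.1 CPM (day 0), 89.8 and 83.9 CPM (day 3) and 73.2 and 81.8 CPM (day 6). Its replicates lay close together, and it had the smallest adjusted p of the set at day 3 (2.69 ± 0.11, adjusted p = 7.6e-08), without replicate 2 (2.74 ± 0.13, adjusted p = 9.7e-07) and at day 6 (2.51 ± 0.11, adjusted p = 8.9e-08). H2-D1, the other class I heavy chain of the set, stood at 18.9 and 18.1 CPM (day 0), 22.6 and 35.9 CPM (day 3) and 44.2 and 44.7 CPM (day 6) and was called at day 6 (1.2 ± 0.26, adjusted p = 0.0021) but not at day 3 (0.61 ± 0.26, adjusted p = 0.063). The 2 heavy chain genes share sequence with other class I genes, in 7.29% of the 50-base windows of H2-K1 and 12.8% of those of H2-D1.

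B2m, the light chain, stood at 87.9 and 86.6 CPM (day 0), 70.3 and 126 CPM (day 3) and 151 and 169.9 CPM (day 6). Its replicates at day 3 fell on both sides of the day 0 level, and its change at day 6 was below the fold limit (0.81 ± 0.27, adjusted p = 0.022). The peptide transporter genes were already expressed at day 0. Tap1 stood at 10.5 and 7.61 CPM (day 0), 4.63 and 11.2 CPM (day 3) and 7.92 and 5.18 CPM (day 6), and Tap2 at 25.5 and 23.6 CPM (day 0), 21.1 and 22.4 CPM (day 3) and 21.8 and 20.5 CPM (day 6). Neither was called on either day (day 3: -0.24 ± 0.42, adjusted p = 0.64 for Tap1 and -0.23 ± 0.23, adjusted p = 0.41 for Tap2). Psmb8, a catalytic subunit of the immunoproteasome, stood at 0.763 and 0.479 CPM (day 0), 0.645 and 2.93 CPM (day 3) and 1.1 and 0.946 CPM (day 6) and was also not called (1.46 ± 0.68, adjusted p = 0.09 at day 3). The kit does not keep the strand, and 18.5% of the exon bases of Tap2, 6.83% of those of Psmb8 and 3.87% of those of Tap1 are overlapped by other genes.

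**Figure D2:**
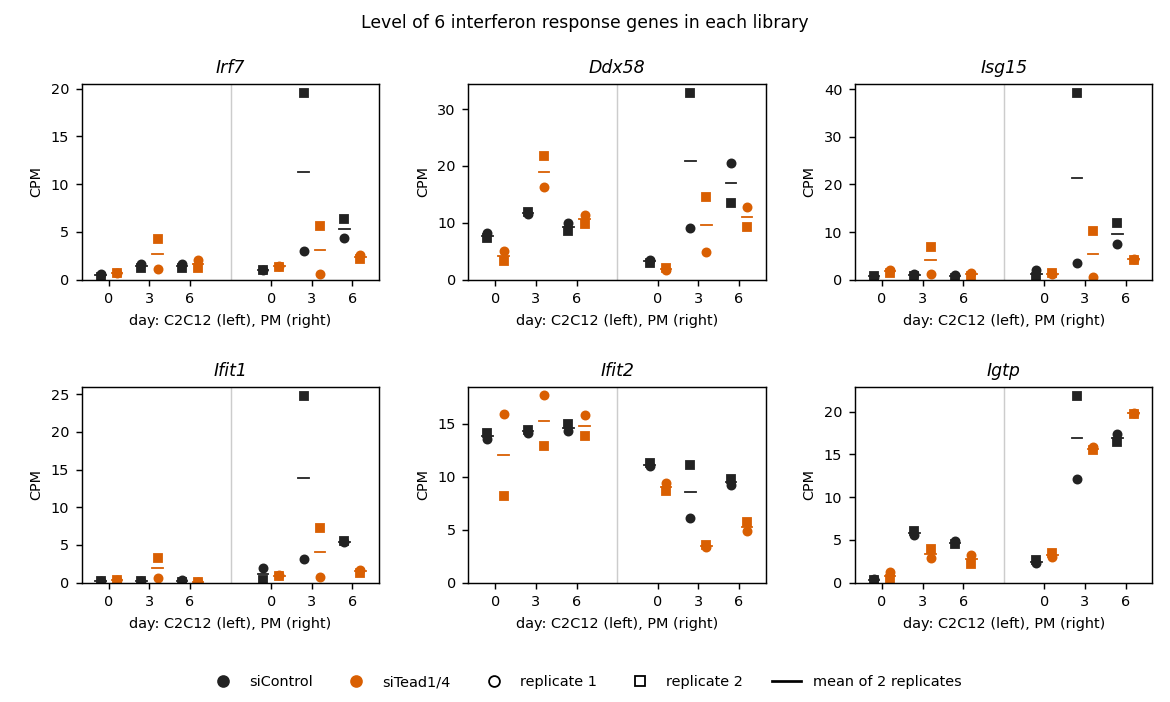
CPM of 6 interferon response genes in each library by day (0, 3, 6), C2C12 left and PM right of the grey line. Black is siControl and orange siTead1/4, circles are replicate 1, squares replicate 2 and bars the mean of 2. In PMs at day 3 the replicate 2 square lies far above the circle for Irf7, Ddx58, Isg15 and Ifit1 under both siRNAs, whereas Igtp is high in all later PM libraries.

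In siControl C2C12 cells fewer members were called. Of 30 members tested, 7 were called higher at day 3 and 0 lower (median log2 fold change 0.49), against 16.0% and 12.7% of 15303 genes. At day 6, 6 were called higher and 1, Tap1, lower (median 0.24), against 17.1% and 14.0%. Without replicate 1 or without replicate 2 of siControl, fewer members were called on both days, Igtp and Xaf1 among them each time. Fewer of all genes were then called as well. The median log2 fold change of the members lay between 0.44 and 0.51 at day 3 and was 0.31 at day 6. Ifi44, Iigp1, Mx1, Psmb8, Rsad2 and Usp18 were too low for the test. The 7 members called at day 3 (Gbp2, Igtp, Irf7, Mx2, Stat2, Xaf1 and Zbp1) were also called in PMs at day 3, which is 100% of the C2C12 calls and 26.9% of the 26 PM calls. With 26 of 35 tested members called in PMs, most of any 7 would be shared, and no overlap over all genes is given. Irf7, Xaf1 and Zbp1 were not among the PM calls once PM siControl day 3 replicate 2 was left out, whereas Gbp2, Igtp, Mx2 and Stat2 were.

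The 3 largest changes in C2C12 cells were those of Zbp1, Igtp and Xaf1. Zbp1 had counts of 0 and 1 (day 0), 34 and 35 (day 3) and 43 and 17 (day 6), so that no fold is given. Igtp stood at 0.422 and 0.302 CPM (day 0), 5.59 and 6.09 CPM (day 3) and 4.84 and 4.48 CPM (day 6) (3.98 ± 0.50, adjusted p = 0.0002 at day 3 and 3.66 ± 0.49, adjusted p = 0.00028 at day 6). Xaf1 stood at 0.619 and 0.658 CPM (day 0), 9.77 and 6.56 CPM (day 3) and 7.61 and 5.15 CPM (day 6), with 3.63 ± 0.45, adjusted p = 0.00019 at day 3 and 3.28 ± 0.44, adjusted p = 0.00029 at day 6. In each of these genes both later pairs were above the day 0 pair.

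Stat2 stood at 11.3 and 14.7 CPM (day 0), 25.1 and 37.7 CPM (day 3) and 29.7 and 35.5 CPM (day 6) and was called on both days (1.23 ± 0.34, adjusted p = 0.017 and 1.29 ± 0.34, adjusted p = 0.013). Irf7 was also called on both days (1.7 ± 0.59, adjusted p = 0.043 and 1.67 ± 0.60, adjusted p = 0.043), from lower levels of 0.591 and 0.302 CPM (day 0), 1.68 and 1.25 CPM (day 3) and 1.62 and 1.24 CPM (day 6). Gbp2 stood at 0.507 and 0.604 CPM (day 0), 2.93 and 2.61 CPM (day 3) and 1.85 and 1.24 CPM (day 6) and was called at day 3 only (2.26 ± 0.71, adjusted p = 0.029, with 1.43 ± 0.71, adjusted p = 0.13 at day 6). Irgm1, at 16.6 and 17 CPM (day 0), 35.1 and 32.5 CPM (day 3) and 31.1 and 36.4 CPM (day 6), changed by just under the fold limit (0.97 ± 0.23, adjusted p = 0.0079 at day 3). The other factors did not pass the test: Irf1 stood at 29.3 and 26.2 CPM (day 0), 25.3 and 30.6 CPM (day 3) and 25.6 and 30.04 CPM (day 6), and Irf9 at 7.23 and 7.43 CPM (day 0), 8.23 and 8.7 CPM (day 3) and 9.52 and 8.62 CPM (day 6).

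Of the remaining sensors and effectors tested in C2C12 cells, none but Mx2 was called. Ddx58 stood at 8.19 and 7.27 CPM (day 0), 11.5 and 11.9 CPM (day 3) and 9.89 and 8.59 CPM (day 6) (0.56 ± 0.25, adjusted p = 0.098 at day 3), Ifih1 at 0.985 and 1.51 CPM (day 0), 1.75 and 0.951 CPM (day 3) and 0.829 and 0.635 CPM (day 6), and Dhx58 at 0.591 and 0.853 CPM (day 0), 0.354 and 0.324 CPM (day 3) and 0.328 and 0.301 CPM (day 6). The day 3 pair was above the day 0 pair for Ddx58, below it for Dhx58 and overlapped it for Ifih1. Ifit2 was the most abundant of the Ifit genes, at 13.6 and 14.1 CPM (day 0), 14.2 and 14.4 CPM (day 3) and 14.3 and 14.9 CPM (day 6), whereas Ifit1 stood at 0.225 and 0.284 CPM (day 0), 0.212 and 0.182 CPM (day 3) and 0.405 and 0.134 CPM (day 6) and Ifit3 at 0.169 and 0.0355 CPM (day 0), 0.236 and 0.0607 CPM (day 3) and 0.251 and 0.134 CPM (day 6). Isg15 stood at 0.619 and 0.835 CPM (day 0), 1.3 and 0.729 CPM (day 3) and 1.08 and 0.401 CPM (day 6), Bst2 at 9.06 and 4.03 CPM (day 0), 7.43 and 5.87 CPM (day 3) and 7.63 and 5.48 CPM (day 6), Ifi35 at 15.6 and 10.4 CPM (day 0), 17 and 14.2 CPM (day 3) and 18.3 and 14.9 CPM (day 6) and Trim25 at 31.2 and 42.4 CPM (day 0), 37.7 and 46.5 CPM (day 3) and 30.7 and 36.9 CPM (day 6). The siControl pairs of these 4 genes overlapped between days 0 and 3, and none was called. Counts for the untested genes in the 6 siControl C2C12 libraries did not exceed 7 for Rsad2, 1 for Iigp1 or 7 for Ifi44.

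The heavy and light chain genes were abundant in C2C12 cells already at day 0. B2m stood at 262 and 222 CPM (day 0), 416 and 319.7 CPM (day 3) and 289 and 226 CPM (day 6), H2-K1 at 61.3 and 36.1 CPM (day 0), 53.9 and 38.9 CPM (day 3) and 50.03 and 32.8 CPM (day 6), and H2-D1 at 54 and 39.9 CPM (day 0), 54.4 and 39.2 CPM (day 3) and 54.7 and 34.2 CPM (day 6). Neither heavy chain was called, and their day 0 and day 3 pairs overlapped. Tap1 stood at 1.63 and 0.924 CPM (day 0), 0.755 and 0.567 CPM (day 3) and 0.559 and 0.301 CPM (day 6) and was called lower at day 6 (-1.55 ± 0.50, adjusted p = 0.029), whereas Tap2, at 3.83 and 2.79 CPM (day 0), 6.58 and 6.88 CPM (day 3) and 6.96 and 6.38 CPM (day 6), did not pass the test (0.99 ± 0.47, adjusted p = 0.12 at day 3). Psmb8 gave counts of 1 and 4 (day 0), 1 and 5 (day 3) and 2 and 1 (day 6).

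**Figure D3:**
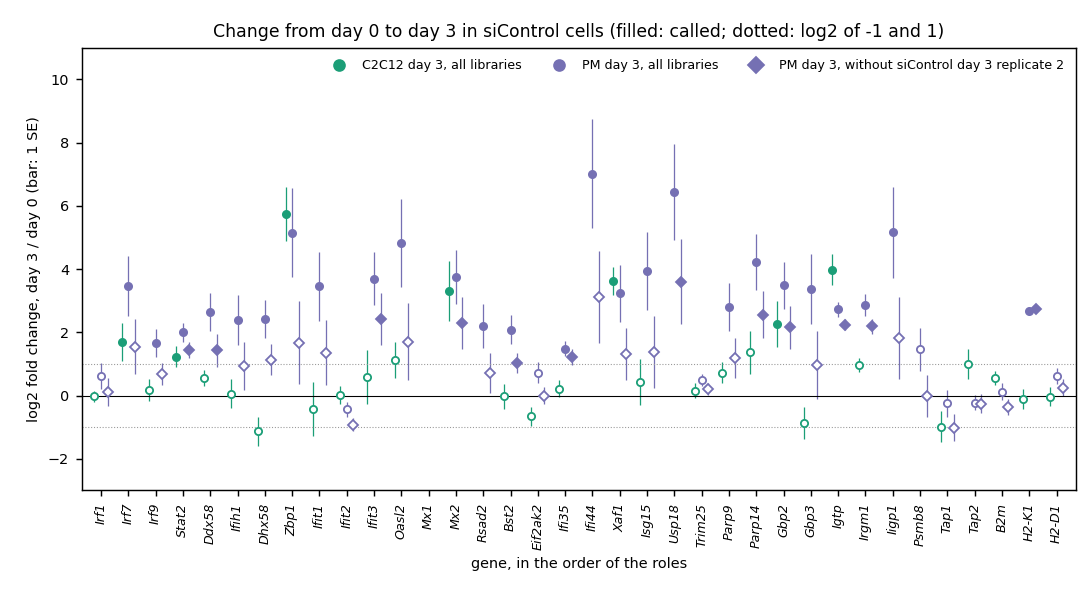
Log2 fold change from day 0 to day 3 in siControl cells (vertical axis, bars 1 SE) for each tested member: C2C12 (green circles), PM (purple circles) and PM without siControl day 3 replicate 2 (purple diamonds), filled where called. For Zbp1 and Mx2 in C2C12 and Usp18 in PM, each day 0 library held at most 3 counts, so that the fitted value depends on the prior count. Leaving out the library lowers most PM values, and 12 diamonds are filled against 26 circles.

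Set side by side under siControl, the cell types differed in both directions at day 0. Of 35 members, 6 were called higher in PMs and 8 lower (median 0.24), against 16.3% and 10.5% of 16926 genes. The 6 class I members went both ways. Psmb8 (3.47 ± 0.99, adjusted p = 0.0099), Tap1 (2.84 ± 0.49, adjusted p = 0.00018) and Tap2 (2.89 ± 0.41, adjusted p = 2.9e-05) were higher in PMs. H2-K1 (-1.91 ± 0.25, adjusted p = 1.0e-05), H2-D1 (-1.34 ± 0.30, adjusted p = 0.0019) and B2m (-1.47 ± 0.26, adjusted p = 0.00021) were lower. This was not a split by function over the pathway. Of 15 other antigen presentation genes tested, 1 (H2-T24) was called higher in PMs and 8 lower. The 8 were H2-T23, Nlrc5, Tapbp, H2-Q4, H2-Q7, H2-T22, Erap1 and Tapbpl, which include genes of peptide processing and loading. Rsad2 was higher in PMs (4.97 ± 0.95, adjusted p = 0.00049), as were Igtp (2.79 ± 0.41, adjusted p = 4.1e-05) and Trim25 (1.07 ± 0.23, adjusted p = 0.0012). The other members lower in PMs were Irf1 (-1.56 ± 0.34, adjusted p = 0.0014), Irgm1 (-1.76 ± 0.31, adjusted p = 0.00023), Parp9, Ifi35 and Eif2ak2.

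At day 3, 21 members were higher in PMs and 1, B2m, lower (-1.9 ± 0.26, adjusted p = 1.9e-05), with a median of 1.91, against 17.2% and 12.6% of all genes. With PM siControl day 3 replicate 2 left out, the median was 0.94. Fewer members were then called higher, at a share still above that of all genes. More were called lower, at a share near that of all genes. Without PM siControl replicate 2 at all days, fewer members were likewise called higher and more lower. Iigp1, with 0 and 0 counts in the C2C12 libraries and 22 and 472 in the PM libraries, was at least 95.4-fold higher, taking 3 counts in each C2C12 library as the floor, and at least 9.39-fold higher without PM siControl day 3 replicate 2. The median is the same with Iigp1 at this bound. Rsad2 had 1 and 2 counts in C2C12 cells against 145 and 744 in PMs, and Usp18 1 and 1 against 34 and 504. H2-K1, lower in PMs at day 0, was 0.90 ± 0.24, adjusted p = 0.0053 at day 3, below the fold limit.

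At day 6, 16 members were higher in PMs and 0 lower, with a median of 1.43, against 15.7% and 9.22% of all genes. At an unadjusted p under 0.05, 22 members passed in either direction. For counts at this threshold, here and below, no share of all genes is given, so that they were not compared with a background. DESeq2 called 17 higher and 0 lower, against 9.25% and 5.59% of all genes. Without C2C12 siControl replicate 1, or without its replicate 2, fewer members were called, and fewer of all genes. Leaving out any 1 replicate of siControl in a cell type gave medians from 1.45 to 1.53. Rsad2 had 1 and 0 counts in C2C12 cells against 110 and 288 in PMs, Iigp1 0 and 1 against 74 and 69 and Ifi44 3 and 1 against 151 and 175. Tap1 (3.87 ± 0.54, adjusted p = 3.1e-05) and Tap2 (1.66 ± 0.39, adjusted p = 0.0032) were higher in PMs here too.

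The difference between the cell types in the change from day 0 was tested directly, as a contrast added after the values had been seen. The day 3 change was larger in PMs for 5 members and smaller for 0 (median difference of log2 fold changes 1.77), against 3.79% and 7.44% of all genes. The 5 were H2-K1 (2.81 ± 0.34, adjusted p = 2.8e-05), Irgm1 (1.91 ± 0.43, adjusted p = 0.0056), Dhx58 (3.59 ± 0.81, adjusted p = 0.0064), Bst2 and Ifi35. Once PM siControl day 3 replicate 2 was left out, the differences were 2.88 ± 0.38 for H2-K1, 1.24 ± 0.36 for Irgm1 and 2.3 ± 0.70 for Dhx58. Bst2 and Ifi35 were then no longer called. Without siControl replicate 1 in both cell types Dhx58, H2-K1 and Irgm1 were called, and without replicate 2 only H2-K1. Fewer of all genes were called in these fits as well. Leaving out a siControl replicate or that library gave medians from 0.47 to 2.54. At day 6 the change was larger in PMs for 5 members (Ddx58, Dhx58, H2-D1, H2-K1 and Irgm1) and smaller for 0, with a median of 1.8, against 5.27% and 7.43%. Without siControl replicate 1 or replicate 2, H2-K1 and Irgm1 were called at day 6, with medians from 1.14 to 1.78. Fewer of all genes were then called as well.

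**Figure D4:**
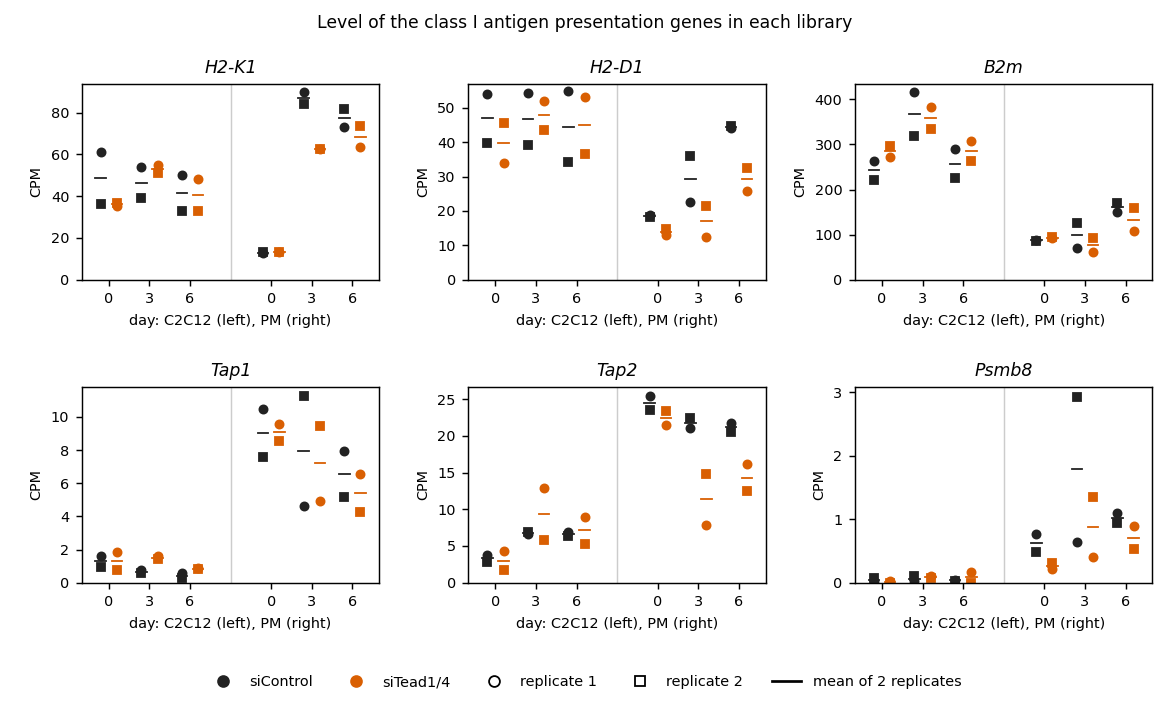
CPM of 6 class I antigen presentation genes in each library by day (0, 3, 6), C2C12 left and PM right of the grey line. Black is siControl and orange siTead1/4, circles are replicate 1, squares replicate 2 and bars the mean of 2. H2-K1 in PMs lies between 12.8 and 13.3 CPM in the day 0 libraries and between 62.4 and 89.8 CPM in the later ones, and Tap2 under siTead1/4 lies below siControl in PMs at days 3 and 6.

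The design's main question was what siTead1/4 changed. In PMs at day 0, 0 of 35 members were called (edgeR), against 2.60% of all genes in either direction. Of these members, 1 had an unadjusted p under 0.05, and DESeq2 called 0. The median log2 fold change was 0.09. At day 3, 1 member, Ifit2, was called lower, against 3.30% of all genes, with a median of -1.13 over the members and 0.01 over all genes. Of the 35, 33 had a negative log2 fold change and 15 had an unadjusted p under 0.05, for which no share of all genes is given. DESeq2 called 5 lower (Dhx58, Eif2ak2, Ifit2, Ifit3 and Mx2), against 0.910% of all genes called lower by DESeq2. Both siTead1/4 libraries were below both siControl libraries in 9 of 35 members, near the 25.0% of all genes for which this held. At day 6, 0 were called by edgeR, against 0.743% of all genes, and DESeq2 called 0. The median was -0.69, with 32 negative values. An unadjusted p under 0.05 was found for 7 members, again without a share of all genes. In 27 of 35 members both siTead1/4 libraries were below both siControl libraries at day 6, against 18.2% of all genes.

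The sign of the median at day 3 changed when 1 library was left out. Without PM siControl day 3 replicate 2 the median was 0.22 and 0 members were called. This sets siControl replicate 1 against both siTead1/4 libraries, of which replicate 2 was itself the higher one. Library by library, siTead1/4 replicate 1 was below siControl replicate 1 in 32 of 36 members, with a median of -0.63 on the log2(CPM + 1) scale. The siTead1/4 replicate 2 was below siControl replicate 2 in 35 of 36, with a median of -1.21. The numbers were not shown to pair the samples, and the main tests did not use them. In PMs, deviations of same-numbered libraries correlated between the siRNAs at 0.56 (day 0), 0.52 (day 3) and 0.70 (day 6). These were the highest values among the PM pairs of groups. A pairing within a day was not tested. Without PM siControl day 3 replicate 2, Ifit2 was -0.83 ± 0.19, below the fold limit. It was also not called without siTead1/4 replicate 1 or without replicate 2. Without PM siTead1/4 day 3 replicate 2 the median was -1.93. H2-D1, Ifi35 and Tap2 were then called lower, although fewer of all genes were. At day 6, leaving out any 1 replicate of a siRNA at all days gave medians from -0.75 to -0.68 and 0 calls.

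Ifit2 stood under siTead1/4 in PMs at 9.43 and 8.67 CPM (day 0), 3.35 and 3.56 CPM (day 3) and 4.88 and 5.7 CPM (day 6), and was -1.32 ± 0.24, adjusted p = 0.01 at day 3 and -0.85 ± 0.24, adjusted p = 0.15 at day 6. The siTead1/4 pair was below the siControl pair on each day. Ifit1 stood at 0.964 and 0.909 CPM (day 0), 0.751 and 7.27 CPM (day 3) and 1.67 and 1.3 CPM (day 6) and Ifit3 at 0.212 and 0.217 CPM (day 0), 0.257 and 1.4 CPM (day 3) and 0.895 and 0.651 CPM (day 6). At day 6 the siTead1/4 pairs of both genes were below the siControl pairs, but neither passed the test (-1.87 ± 1.07, adjusted p = 0.57 and -2.05 ± 0.79, adjusted p = 0.32). Isg15 stood at 1.1 and 1.36 CPM (day 0), 0.665 and 10.3 CPM (day 3) and 4.39 and 4.19 CPM (day 6), with -1.98 ± 1.11, adjusted p = 0.33 at day 3, where the pairs overlapped, and -1.18 ± 1.12, adjusted p = 0.79 at day 6, where they did not.

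Among the factors under siTead1/4 in PMs, Irf7 stood at 1.48 and 1.34 CPM (day 0), 0.644 and 5.65 CPM (day 3) and 2.54 and 2.2 CPM (day 6) (-1.86 ± 0.87, adjusted p = 0.24 at day 3). Irf9 stood at 8.09 and 7.41 CPM (day 0), 7.98 and 16.9 CPM (day 3) and 12.3 and 10.7 CPM (day 6), Stat2 at 10.2 and 11.4 CPM (day 0), 15.3 and 24.3 CPM (day 3) and 15 and 13.4 CPM (day 6), and Irf1 at 9.45 and 11.9 CPM (day 0), 11.9 and 21.8 CPM (day 3) and 13.3 and 23 CPM (day 6). Stat2 did not overlap at day 3 (-0.97 ± 0.29, adjusted p = 0.07), whereas Irf1 overlapped on every day. Of the sensors, Ddx58 stood at 1.72 and 2.09 CPM (day 0), 4.85 and 14.5 CPM (day 3) and 12.8 and 9.24 CPM (day 6), Ifih1 at 3.6 and 2.67 CPM (day 0), 2.51 and 11.2 CPM (day 3) and 4.19 and 4.84 CPM (day 6) and Dhx58 at 0.752 and 0.889 CPM (day 0), 0.794 and 2.04 CPM (day 3) and 1.27 and 1.27 CPM (day 6). In all 3 the siTead1/4 pair was below the siControl pair at day 6 but not at day 3, and none passed the test on either day. Zbp1 gave 8 and 43 counts at day 3 and 6 and 18 at day 6 under siTead1/4.

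Rsad2 under siTead1/4 stood at 6.93 and 6.88 CPM (day 0), 3.45 and 6.78 CPM (day 3) and 1.15 and 3.01 CPM (day 6), above siControl at day 0 (1.52 ± 0.70, adjusted p = 0.23) and below it at day 6 (-1.64 ± 0.72, adjusted p = 0.4). Trim25 at day 0 was the member with an unadjusted p under 0.05 (0.50 ± 0.19, adjusted p = 0.14), at 111 and 108 CPM (day 0), 132 and 98.5 CPM (day 3) and 66.9 and 55.9 CPM (day 6). Bst2 stood at 11.3 and 9.27 CPM (day 0), 14.7 and 18.7 CPM (day 3) and 12.1 and 19.3 CPM (day 6) and Ifi35 at 8.56 and 6.95 CPM (day 0), 7.32 and 11.7 CPM (day 3) and 9.12 and 9.15 CPM (day 6). For Ifi35 the siTead1/4 pair was above siControl at day 0 (0.45 ± 0.24, adjusted p = 0.29) and below it at day 3 (-0.80 ± 0.23, adjusted p = 0.065) and day 6 (-0.69 ± 0.23, adjusted p = 0.24). Usp18 stood at 0.212 and 0.158 CPM (day 0), 0.107 and 2.22 CPM (day 3) and 1.18 and 0.806 CPM (day 6), Ifi44 at 0.0235 and 0.079 CPM (day 0), 0.172 and 2.09 CPM (day 3) and 1.65 and 2.02 CPM (day 6) and Xaf1 at 0.682 and 0.612 CPM (day 0), 0.73 and 4.68 CPM (day 3) and 2.63 and 3.91 CPM (day 6). None of these 3 passed the test at any day.

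The GTPases were not alike under siTead1/4 in PMs. Igtp stood at 2.96 and 3.5 CPM (day 0), 15.8 and 15.5 CPM (day 3) and 19.9 and 19.8 CPM (day 6), above the siControl pair at days 0 and 6 and within it at day 3 (-0.12 ± 0.22, adjusted p = 0.81). Irgm1 stood at 7.19 and 6.86 CPM (day 0), 16 and 26.2 CPM (day 3) and 42 and 43.9 CPM (day 6), Gbp2 at 0.658 and 0.395 CPM (day 0), 1.33 and 4.31 CPM (day 3) and 3.64 and 2.64 CPM (day 6) and Iigp1 at 0.376 and 0.652 CPM (day 0), 0.107 and 2.04 CPM (day 3) and 1.18 and 0.744 CPM (day 6). At day 6 both siTead1/4 libraries were below siControl for Irgm1 and Iigp1, and the Gbp2 pairs overlapped. No GTPase was called.

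Of the class I genes in PMs, H2-K1 stood under siTead1/4 at 13.3 and 13.1 CPM (day 0), 62.4 and 62.8 CPM (day 3) and 63.4 and 73.5 CPM (day 6). At day 3 the siTead1/4 pair was below the siControl pair with an adjusted p under the threshold but a change below the fold limit (-0.48 ± 0.10, adjusted p = 0.022), which became -0.53 ± 0.13, adjusted p = 0.054 without siControl replicate 2. Tap2 stood at 21.5 and 23.4 CPM (day 0), 7.92 and 14.8 CPM (day 3) and 16.1 and 12.5 CPM (day 6), also below siControl at day 3 and below the fold limit (-0.95 ± 0.23, adjusted p = 0.036), with -0.91 ± 0.29, adjusted p = 0.12 without that library. H2-D1 stood at 13 and 14.8 CPM (day 0), 12.5 and 21.5 CPM (day 3) and 25.9 and 32.5 CPM (day 6), and its siTead1/4 pair was below the siControl pair on every day (-0.79 ± 0.26, adjusted p = 0.093 at day 3 and -0.61 ± 0.25, adjusted p = 0.38 at day 6), without passing the test. B2m stood at 92.9 and 94.1 CPM (day 0), 61.6 and 92.2 CPM (day 3) and 109 and 158 CPM (day 6), Tap1 at 9.59 and 8.57 CPM (day 0), 4.96 and 9.47 CPM (day 3) and 6.55 and 4.25 CPM (day 6) and Psmb8 at 0.212 and 0.316 CPM (day 0), 0.408 and 1.35 CPM (day 3) and 0.895 and 0.527 CPM (day 6). The pairs of these 3 genes overlapped at day 3, and their changes were not called.

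**Figure D5:**
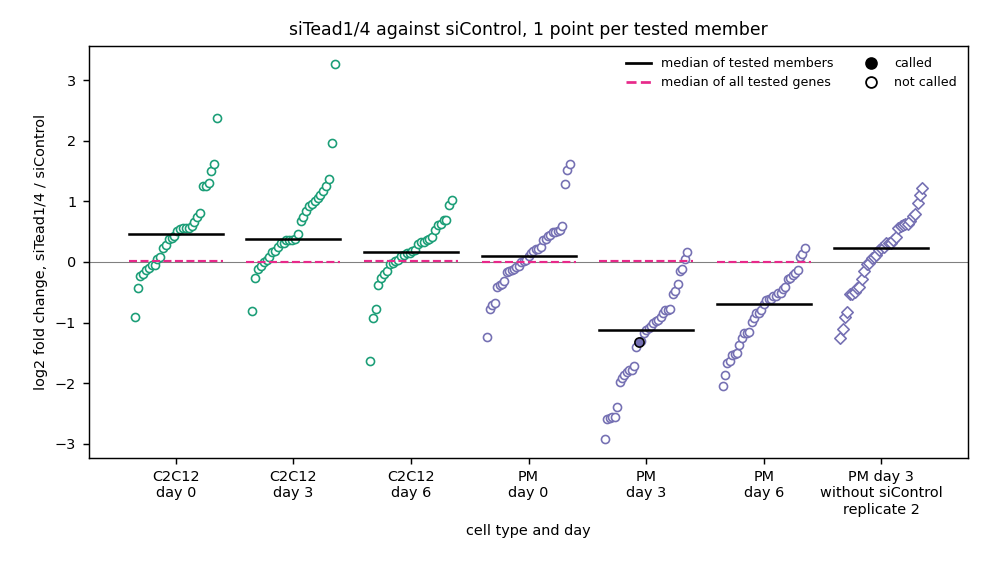
Log2 fold change of siTead1/4 against siControl for each tested member (points, ordered by value) in each cell type and day. Black bars are the median of the members, dashed pink bars the median of all tested genes, and filled points are called. The median at PM day 3 is -1.13 with all libraries and 0.22 in the rightmost column, which leaves out siControl day 3 replicate 2, and Ifit2 is the only filled point.

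In C2C12 cells, siTead1/4 gave 0 calls among 30 members on each day with edgeR. At day 0, edgeR called 0.438% of all genes in either direction. The median over the members was 0.47, and 7 had an unadjusted p under 0.05. DESeq2 called 1 member higher (Xaf1), against 0.424% of all genes. Both siTead1/4 libraries were above both siControl libraries in 12 members, against 18.7% of all genes. At day 3, edgeR called 1.27% of all genes. The median over the members was 0.37, and 7 had an unadjusted p under 0.05. DESeq2 called 3 higher (Bst2, Ifi44 and Ifit1), against 0.780% of all genes. In 13 members the pairs did not overlap and siTead1/4 was higher, against 22.9% of all genes. At day 6, edgeR called 0.0457% of all genes. The median over the members was 0.16, 1 had an unadjusted p under 0.05 and DESeq2 called 0 members.

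The siTead1/4 pair of C2C12 day 3 was itself uneven, with replicate 2 above replicate 1 in 24 of 36 members. Ifit1 stood at 0.582 and 3.31 CPM under siTead1/4 against 0.212 and 0.182 CPM under siControl (3.26 ± 0.79, adjusted p = 0.082), and Ifi44 at 0.185 and 5.19 CPM against 0.0708 and 0.142 CPM. Irf9 stood at 10.6 and 8.71 CPM (day 0), 10.4 and 26.7 CPM (day 3) and 9.19 and 10.5 CPM (day 6) (1.1 ± 0.35, adjusted p = 0.17 at day 3) and Bst2 at 6.86 and 6.95 CPM (day 0), 11.1 and 21.2 CPM (day 3) and 10.5 and 9.75 CPM (day 6) (1.25 ± 0.40, adjusted p = 0.17 at day 3). In all 4 genes both siTead1/4 libraries were above siControl at day 3. Without C2C12 siTead1/4 day 3 replicate 2 the median was 0.26 and no member was called. Some members were called higher without siTead1/4 replicate 1 at all days, and more of all genes were as well. Leaving out a replicate or library gave medians from 0.26 to 0.65.

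For the other factors in C2C12 cells under siTead1/4, Irf7 stood at 0.658 and 0.658 CPM (day 0), 1.16 and 4.21 CPM (day 3) and 2.02 and 1.24 CPM (day 6), Stat2 at 21.9 and 19.1 CPM (day 0), 16.7 and 37 CPM (day 3) and 24.4 and 29.5 CPM (day 6) and Irf1 at 41.1 and 40.4 CPM (day 0), 30.1 and 37.6 CPM (day 3) and 34.7 and 34.5 CPM (day 6). For these 3 factors the siTead1/4 pair was above siControl at day 0, by 0.59, 0.65 and 0.55 on the log2 scale, none of them called. Xaf1 stood at 1.88 and 2.05 CPM (day 0), 4.45 and 11 CPM (day 3) and 3.31 and 3.39 CPM (day 6), higher than siControl at day 0 (1.61 ± 0.44, adjusted p = 0.17) and lower at day 6 (-0.93 ± 0.40, adjusted p = 0.7). Igtp stood at 1.27 and 0.402 CPM (day 0), 2.88 and 3.94 CPM (day 3) and 3.28 and 2.15 CPM (day 6), below siControl at days 3 and 6 (-0.80 ± 0.42, adjusted p = 0.44 and -0.78 ± 0.42, adjusted p = 0.82), and Irgm1 at 36.8 and 22.1 CPM (day 0), 38.8 and 39.1 CPM (day 3) and 30.1 and 36.1 CPM (day 6) (0.81 ± 0.23, adjusted p = 0.2 at day 0). Neither passed the test.

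Ddx58 was the one tested C2C12 member whose siTead1/4 pair lay below siControl at day 0 and above it at day 3, with 5.0 and 3.26 CPM (day 0), 16.3 and 21.7 CPM (day 3) and 11.4 and 9.8 CPM (day 6) (-0.90 ± 0.25, adjusted p = 0.18 at day 0 and 0.68 ± 0.25, adjusted p = 0.23 at day 3). Ifih1 stood at 2.28 and 0.951 CPM (day 0), 1.32 and 2.06 CPM (day 3) and 0.98 and 0.909 CPM (day 6), Dhx58 at 0.752 and 0.658 CPM (day 0), 0.37 and 1.02 CPM (day 3) and 0.461 and 0.554 CPM (day 6), and Zbp1 at 0.117 and 0 CPM (day 0), 1.01 and 0.972 CPM (day 3) and 1.5 and 1.37 CPM (day 6) (1.02 ± 0.50, adjusted p = 0.77 at day 6). Isg15 stood at 2.02 and 1.46 CPM (day 0), 1.27 and 6.83 CPM (day 3) and 1.38 and 0.82 CPM (day 6), and its day 3 pairs overlapped. Ifit1 at days 0 and 6 stood at 0.399 and 0.366 CPM and 0.144 and 0.0443 CPM, Ifit2 at 15.9 and 8.19 CPM (day 0), 17.7 and 12.9 CPM (day 3) and 15.8 and 13.8 CPM (day 6), and Ifit3 at 0.141 and 0.0732 CPM (day 0), 0.318 and 0.301 CPM (day 3) and 0.259 and 0.111 CPM (day 6). None of these was called. Gbp2 stood at 2.28 and 0.878 CPM (day 0), 5.87 and 1.32 CPM (day 3) and 2.39 and 1.06 CPM (day 6), Ifi35 at 14.1 and 20.8 CPM (day 0), 13.5 and 18.8 CPM (day 3) and 13.2 and 12.2 CPM (day 6) and Trim25 at 67.5 and 55.3 CPM (day 0), 44.1 and 66.9 CPM (day 3) and 44.9 and 44.4 CPM (day 6).

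For class I in C2C12 cells under siTead1/4, B2m stood at 273 and 297 CPM (day 0), 383 and 334 CPM (day 3) and 307 and 262 CPM (day 6). H2-K1 stood at 35.4 and 36.9 CPM (day 0), 54.9 and 51.2 CPM (day 3) and 48.4 and 32.8 CPM (day 6) and H2-D1 at 34.1 and 45.6 CPM (day 0), 52 and 43.6 CPM (day 3) and 53.2 and 36.5 CPM (day 6), and both overlapped siControl on every day. Tap1 stood at 1.83 and 0.768 CPM (day 0), 1.61 and 1.41 CPM (day 3) and 0.893 and 0.798 CPM (day 6) (1.17 ± 0.48, adjusted p = 0.29 at day 3 and 0.93 ± 0.50, adjusted p = 0.82 at day 6), above siControl on both days without passing the test. Tap2 stood at 4.3 and 1.68 CPM (day 0), 12.9 and 5.88 CPM (day 3) and 8.93 and 5.3 CPM (day 6). Rsad2 gave counts of 7 and 1 (day 0), 1 and 3 (day 3) and 1 and 0 (day 6), Usp18 counts of 4 and 4 (day 0), 2 and 43 (day 3) and 0 and 1 (day 6), and Psmb8 counts of 1 and 0 (day 0), 4 and 3 (day 3) and 6 and 0 (day 6). Iigp1 had at most 1 count in any of these libraries.

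Whether siTead1/4 acted differently in the 2 cell types was tested as the difference of its log2 fold changes, PMs minus C2C12 cells. With edgeR, 0 of 35 members were called on any day. At day 0 the median difference was -0.23, 0 members had an unadjusted p under 0.05 and DESeq2 called 0. All genes called by edgeR were 0.00591%. At day 3 the median difference was -1.71, with 34 of 35 negative. Of all genes, edgeR called 1.25%. An unadjusted p under 0.05 was found for 19 members, a different threshold for which no share of all genes is given. DESeq2 called 6 members lower at day 3, against 0.516% of all genes. Bst2 (-2.36 ± 0.64, adjusted p = 0.088), Ifi44 (-7.51 ± 2.02, adjusted p = 0.089) and Ifit2 (-1.41 ± 0.39, adjusted p = 0.092) had the smallest p. Without PM siControl day 3 replicate 2 the median was -0.58 and no member was called. The median was -2.55 without PM siTead1/4 day 3 replicate 2, where Ifit1 and Usp18 were called, although fewer of all genes were. At day 6 the median was -0.83, with 4 members at an unadjusted p under 0.05 and 0 called by DESeq2. All genes called by edgeR at day 6 were 0.0354%.

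Other genes of the pathway, from lists that were written with earlier results of these data known, were counted in the same fits. In siControl PMs 35 of 97 tested were called higher and 7 lower at day 3, against 17.5% and 14.9% of all genes, and 25 and 7 at day 6, against 20.2% and 15.3%. With PM siControl day 3 replicate 2 left out, 17 of 100 tested were called higher at day 3 and 11 lower, near the 16.3% and 14.3% of all genes. In siControl C2C12 cells the counts were 7 higher and 8 lower of 90 at day 3, below the shares of all genes (16.0% and 12.7%), and 9 and 11 at day 6, again below them (17.1% and 14.0%). Ifngr2, a chain of the interferon gamma receptor, was called higher in siControl PMs at days 3 and 6. From day 0 to day 3 in siControl PMs Ifnar1 changed by -0.62 ± 0.15, adjusted p = 0.0043, Ifnar2 by -0.37 ± 0.14, adjusted p = 0.044 and Ifngr1 by -0.11 ± 0.17, adjusted p = 0.6, all below the fold limit.

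Of 46 other interferon-stimulated genes tested in PMs, 24 were called higher and 3 (Gbp4, Gbp9 and Slfn9) lower at day 3, against 17.5% and 14.9% of all genes. When PM siControl day 3 replicate 2 was left out, 9 of the 46 were called higher and 5 lower, against 16.3% and 14.3%. Oas1a, a synthetase of the activator of RNase L, had counts of 0 and 0 (day 0), 2 and 26 (day 3) and 9 and 14 (day 6), at least 5.05-fold higher at day 6 with 3 counts in each day 0 library as the floor. Replicate 1 of day 3 was below that floor, so that no fold is given for day 3. Oas2 had 1 and 0 at day 0 and 4 and 68 at day 3. Slfn2, of the schlafen family, had 2 and 1 counts at day 0 and 82 and 79 at day 6. In siControl C2C12 cells Slfn8 had 18 and 41 counts at day 0 and 1 and 1 at day 3, and Oasl1 9 and 19 and 1 and 0, both called lower. At day 6 Ddx60 was called higher, from 1 and 0 to 13 and 8 counts, and Irf5 lower (-3.23 ± 0.50, adjusted p = 0.00068).

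Between the cell types, Gbp6 had 0 and 0 counts in siControl C2C12 cells at day 0 and 294 and 185 in PMs, which makes it at least 83.1-fold higher in PMs with 3 counts in each C2C12 library as the floor. Gbp4 had 2 and 0 and 1100 and 772 counts. At day 3, Oas2 was at least 13.9-fold higher in PMs on the same floor with both libraries and at least 1.71-fold without PM siControl day 3 replicate 2, and Oasl1 had 1 and 0 counts in C2C12 cells and 39 and 126 in PMs. At day 6, Irf8 was at least 9.25-fold and Oas2 at least 8.02-fold higher. The change from day 0 was called larger in PMs for Slfn8 on both days, for Lgals3bp at day 3 (3.79 ± 1.0, adjusted p = 0.017) and for Slfn2 at day 6. The day 3 difference without PM siControl day 3 replicate 2 was still called for Slfn8 (adjusted p = 0.036) but not for Lgals3bp (2.11 ± 0.87, adjusted p = 0.15).

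Of 15 other antigen presentation genes tested in PMs, 5 were called higher and 1 lower at day 3, against 17.5% and 14.9% of all genes, and 4 and 1 without PM siControl day 3 replicate 2. Tapbp encodes tapasin, which loads peptides, and stood in siControl PMs at 13.7 and 13.2 CPM (day 0), 30.2 and 43.6 CPM (day 3) and 49 and 46.5 CPM (day 6), called at both days (1.4 ± 0.24, adjusted p = 0.00056 and 1.76 ± 0.24, adjusted p = 0.00011). Nlrc5, the transactivator of class I genes, was called higher in PMs at day 3 (1.54 ± 0.30, adjusted p = 0.0012) and lower in C2C12 cells at day 3 (-1.29 ± 0.39, adjusted p = 0.024) and day 6 (-2.23 ± 0.41, adjusted p = 0.0018). It was also lower under siTead1/4 at day 3 in both, PMs (-1.76 ± 0.30, adjusted p = 0.0072) and C2C12 cells (-2.35 ± 0.45, adjusted p = 0.037). The siTead1/4 comparison called few other pathway genes: Ifitm1 higher at day 0 in PMs (2.91 ± 0.58, adjusted p = 0.015) and in C2C12 cells (2.84 ± 0.36, adjusted p = 0.019), H2-Q7, whose reads other class I genes may share, lower in PMs at day 0 (-2.02 ± 0.52, adjusted p = 0.043) and Slfn5 lower in PMs at day 3 (-1.19 ± 0.27, adjusted p = 0.026). Slfn5 was no longer called without PM siControl day 3 replicate 2 (-1.05 ± 0.33, adjusted p = 0.11), whereas Nlrc5 was (-1.54 ± 0.36, adjusted p = 0.046). The constitutive proteasome subunits Psmb5, Psmb6 and Psmb7, which the immunoproteasome replaces, were called in neither cell type between days in siControl cells.

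Among the genes whose log2 CPM followed the mean standardised level of the 35 tested members most closely over the 24 libraries, out of 14089 searched without the members, were I830012O16Rik (Pearson's r 0.88, Spearman's rho 0.57), Gbp7 (0.87 and 0.73), Uba7 (0.84 and 0.87) and Trim12c (0.84 and 0.88). These are descriptions over libraries that share cell type and day, and I830012O16Rik shares sequence with Ifit3. The mean standardised level itself was highest in PM siControl day 3 replicate 2, at 2.11, followed by the siControl PM libraries of day 6 at 0.82 and 0.91, and lowest in PM siControl day 0 replicate 2, at -0.78.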

How the data were processed

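Polyadenylated RNA was sequenced from 24 libraries, 12 per cell type and 2 per group. The authors deposited raw read counts per gene on mm9. The submitters' processing notes name CASAVA 1.8.2, TopHat2 2.0.10, Bowtie2 2.1.0, HTSeq 0.6.1 and DESeq2 1.8.1. The other 84 columns of per-sample values, which include the authors' normalised values, were not used here. The kit is not stranded. Library totals (25453830 to 52784510 counts) limit precision, and intervals and floors (3 counts) cover counting error only.

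Counts were filtered with filterByExpr, scaled by TMM and fitted with the quasi-likelihood test of edgeR 4.0.16 (R 4.3.3, limma 3.58.1), 6 group means per cell type, or 12 in 1 fit of 24 libraries for comparisons between cell types. Calls needed an adjusted p (Benjamini-Hochberg, all tested genes) below 0.05 and a log2 fold change beyond 1 in size. The steps were tested on simulated data. The labels do not say that replicates came from separate cultures or animals, so p-values measure only the spread between these samples, which may be technical.

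The members and lists were chosen with earlier results of these data known. Values by library, or counts where these were few, were given for 22 set genes, of which Psmb9 was not analysed here, and for the 3 called members with the largest change per comparison (or those with the smallest p). Of the other pathway genes, fold changes or levels were given for 6 (1 of which is not reported here) and for the 2 called with the largest change. The comparison of day effects between cell types, and the omission of single libraries, were chosen after seeing the data. Alternatives were DESeq2 1.42.0, RLE size factors, no filter or at least 10 counts in every library, fewer or more libraries per fit, a replicate block and leaving out replicates.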

Additional observations from a re-analysis of the deposited data

Results flagged for a closer look

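The results here were singled out because the same contrast differed between the cell types in a test of the difference itself (edgeR, 24 libraries), given as the log2 fold change in PMs minus that in C2C12 cells. For the change from day 0 to day 3 in siControl cells the differences were 2.81 ± 0.34, adjusted p = 2.8e-05 for H2-K1, 1.91 ± 0.43, adjusted p = 0.0056 for Irgm1, 3.59 ± 0.81, adjusted p = 0.0064 for Dhx58, 2.11 ± 0.65, adjusted p = 0.039 for Bst2 and 1.27 ± 0.38, adjusted p = 0.034 for Ifi35. Without PM siControl day 3 replicate 2, Bst2 (1.07 ± 0.57, adjusted p = 0.28) and Ifi35 (1.02 ± 0.42, adjusted p = 0.14) were no longer called, whereas the other 3 were.

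For the change from day 0 to day 6 they were 2.81 ± 0.34, adjusted p = 2.2e-05 for H2-K1, 2.32 ± 0.43, adjusted p = 0.0011 for Irgm1, 3.25 ± 0.82, adjusted p = 0.012 for Dhx58, 2.13 ± 0.69, adjusted p = 0.048 for Ddx58 and 1.34 ± 0.42, adjusted p = 0.041 for H2-D1. Both changes share the day 0 libraries.

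For the effect of siTead1/4 at day 3, no member was called, but 2 other genes of the pathway were: Ddx60, an RNA helicase (-4.14 ± 0.95, adjusted p = 0.04), and Isg20, an exonuclease (-2.19 ± 0.47, adjusted p = 0.031). When PM siControl day 3 replicate 2 was left out neither passed (Ddx60 -2.22 ± 0.72, adjusted p = 0.23, Isg20 -2.1 ± 0.54, adjusted p = 0.11), and in the fit of the 8 libraries of that day neither passed (adjusted p = 0.21 and 0.16).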

How the results depend on the processing

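Counts of called members are given for each setting that moved them by over 1.5 times. The share of all genes called moved as well, and is given at the end for some settings. Leaving out a siControl replicate lowered the share of all genes called from day 0 in both cell types. The siTead1/4 effect in C2C12 cells went from 0 to 1 at day 0 and to 3 at day 3 with DESeq2, to 2 and 7 with no filter on low counts, and ranged over 0 to 1 and 0 to 6 when a replicate was left out. In PMs at day 0 it went from 0 to 1 with no filter and to 1 with only the 4 libraries of the comparison. At day 3 it went from 1 to 5 with DESeq2, 16 with no filter, 4 with the replicate block and 0 with only the 4 libraries, with 0 to 3 when a replicate or library was left out, and at day 6 from 0 to 3 with no filter. From day 0 in siControl C2C12 cells, the count at day 3 went from 7 to 11 with only the 4 libraries and was 3 without either replicate, and at day 6 from 7 to between 2 and 3. In siControl PMs the 26 at day 3 became 17 with at least 10 counts in every library, where 25 members were tested, and 5 to 29 with a replicate or library left out. Between cell types, the 22 at day 3 became 9 and the 16 at day 6 became 5 with at least 10 counts in every library, where 20 members were tested, and 14 to 25 and 10 to 16 with a replicate left out. The difference in siTead1/4 effect at day 3 went from 0 to 6 with DESeq2, 19 with no filter and 0 to 2 with a replicate or library left out. The difference in day effect went from 5 to 10 with DESeq2 and 18 with no filter at day 3 (1 to 3 with a replicate left out), and from 5 to 14 with no filter at day 6 (2 with either replicate left out). With no filter, siTead1/4 at day 3 called 44.4% of members and 1.26% of all genes lower in PMs. In C2C12 cells it called 19.4% and 1.87% higher at day 3. With the replicate block, 11.4% of members and 1.88% of all genes were lower in PMs at day 3. With no filter at day 0 in PMs, 2.78% and 1.31% were higher. With at least 10 counts in every library, 68.0% and 15.8% were higher at day 3 than day 0 in siControl PMs. With that filter, 40.0% of members and 9.41% of all genes were higher in PMs than C2C12 cells at day 3. At day 6 it was 25.0% and 7.46%. The siTead1/4 effect at day 3 was lower in PMs for 52.8% and 1.17% with no filter. The day 3 change was larger in PMs for 27.8% and 2.67% with DESeq2, and 47.2% and 2.87% with no filter. At day 6 it was 36.1% and 4.00% with no filter. In C2C12 cells, 34.5% and 17.9% were higher at day 3 than day 0 with only the 4 libraries. Except where a value above or construction shows it, the cause was not tested.

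Over the genes named, 1434 of 1681 values kept direction and side of the threshold, 224 lost the call (202 of them with a replicate or library left out), 22 gained it and 1 reversed: Igtp, siTead1/4 effect in PMs against C2C12 cells at day 0, was 0.33 without siTead1/4 replicate 1 and -1.55 without replicate 2. Replicate numbers were not shown to pair the samples. Deviations of same-numbered libraries correlated at -0.37 to 0.63 in C2C12 cells (8 of 15 pairs of groups over 0.1) and at 0.076 to 0.70 in PMs (13 of 15). Between the siRNAs of one day they were 0.52 to 0.70 in PMs, the highest of the 15. In C2C12 cells they were -0.31, 0.078 and 0.63 at days 0, 3 and 6. The replicate block moved the count of members called by over 1.5 times only for the siTead1/4 effect in PMs at day 3. It fitted 1 shift between the replicates per cell type over all days, so that it could not represent a pairing within a day.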
